A study of Mus musculus with 4 samples.

Results

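Regulatory T cells (Treg) were chosen from single-cell RNA profiles of pancreatic tumours by raw counts of unique molecular identifiers (UMIs, 1 per captured transcript). A kept barcode counted as a Treg if it held at least 1 UMI of Foxp3, at least 1 of Cd3e, Cd3d and Cd3g together, at least 1 of Il2ra, Ikzf2, Ctla4 and Tnfrsf4 together, none of Cd8b1 or Cd79a, and at most 1 of the cycling genes Mki67 and Top2a. These values chose the members, so they are described and not tested. The rule found 230 Treg among 14855 kept barcodes of 18001 in all: 38 and 64 in the vehicle libraries 1 and 2, and 62 and 66 in the AT38 libraries 1 and 2. The comparison cells were 927 Foxp3-negative CD4 T cells, with a Cd4 UMI and no UMI of Foxp3, Cd8a, Cd8b1 or Cd79a.

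The tumours grew in the pancreas of C57BL/6 mice from B6KPC3, a mouse pancreatic ductal adenocarcinoma line. Treatment began when tumours were 7 days old and lasted 7 days. AT38 mice received 30 mg/kg per day intraperitoneally in 1% carboxymethyl cellulose, and vehicle mice received the carrier alone on the same schedule. AT38 is known here by its code name. Each of the 4 libraries, 2 per group, pooled 4 mice and was enriched for CD45, the pan-leukocyte surface protein, so the p-values speak of the spread among pools, not among mice. Libraries held 24294215 to 34386076 UMIs.

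Treg are CD4 T cells that restrain immune responses. The transcription factor FOXP3 defines the lineage, the IL-2 receptor chain CD25 (Il2ra) captures the growth factor IL-2, and CTLA-4 strips costimulatory ligands from antigen-presenting cells. In inflamed tissue and in tumours, activated Treg can carry the alarmin receptor ST2 (Il1rl1) and the inhibitory lectin receptor KLRG1, and can make IL-10 and the repair factor amphiregulin (Areg).

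Of 443 kept barcodes with a Foxp3 UMI, 416 had a Cd3 UMI, 413 of these passed the receptor step, 297 lacked Cd8b1, 286 of those lacked Cd79a, and 230 passed the cycling limit. Just inside the limits were 60 Treg with 1 Foxp3 UMI, 15 with a single Cd3 UMI, 2 with a single receptor UMI and 49 with 1 cycling UMI. Just outside, 59 barcodes failed only for a Cd8b1 UMI, 56 only for cycling genes, 13 only for Cd3, 8 only for Cd79a, 2 only for the receptor step and 1782 only for Foxp3. A Cd4 UMI was seen in 136 Treg and a Cd8a UMI in 14. Foxp3 UMIs were seen in 2 of 1301 B cells (0.154%, 95% exact binomial interval 0.0186 to 0.554%) and in 11 of 3142 neutrophils (0.350%). Of 2191 CD8 T cells, 110 held one (5.02%, 4.14 to 6.02%). Intervals cover counting error only. These cells were not thinned, and their depth differed. Over the libraries, median depth was 6704 to 9367 UMIs in CD8 T cells, 2725 to 3594 in B cells and 2172 to 2562 in neutrophils. Cycling cells were included in these CD8 T cells, unlike in the CD8 T class used for shares below. After each cell was thinned to 1500 UMIs, Foxp3 was still seen in 144 of 226 Treg (63.7%), so some Foxp3-negative CD4 T cells may express Foxp3 below detection.

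Of the Treg markers read cell by cell, Izumo1r (the surface protein FR4) was no part of the rule, while Ikzf2 (Helios, a Treg transcription factor), Ctla4 and Il2ra were, so their shares are partly fixed by it. Among thinned Treg that held few myeloid transcripts, a UMI of Ikzf2 was seen in 87.4%, of Ctla4 in 85.1%, of Il2ra in 49.4% and of Izumo1r in 37.9%. The same shares in Foxp3-negative CD4 T cells were 21.1, 53.2, 8.79 and 9.50%, and in B cells 0.55, 2.52, 0.55 and 0.236%. Median depth before thinning was 4139, 3865.5 and 3169 UMIs in these Treg, CD4 T and B cells.

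A share of the members also carried transcripts of antigen-presenting and other myeloid cells. In 52 of 230 Treg (22.6%), 13 myeloid genes (H2-Ab1, H2-Aa, H2-Eb1, Cd74, Cst3, Fscn1, S100a8, S100a9, C1qa, C1qb, C1qc, Lyz2 and Apoe) held at least 0.5% of UMIs. These are called mixed barcodes; the genes and the limit were set after seeing the data. Mixed barcodes numbered 6, 15, 17 and 14 in vehicle 1, vehicle 2, AT38 1 and AT38 2. Their median depth was 15464 UMIs against 4139 in the other 178 Treg. Among Foxp3-negative CD4 T cells, 44, 80, 60 and 15 barcodes were mixed, which left 728. Summed dendritic cell markers ran from 1797 to 8577 CPM (UMIs scaled to a common library total, counts per 1e+06) over the libraries in all Treg and from 499 to 754 without the mixed barcodes. That fall is partly fixed by the definition, since Fscn1 is on both lists and other genes of the 13 mark antigen-presenting cells. Between any pair of libraries 0 to 8 cell barcodes were shared, none of them among Treg. The gene tests below were run on all 230 Treg and again without the mixed barcodes, cell-by-cell shares are without them, and shares among T cells are of all members.

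**Figure D1:**
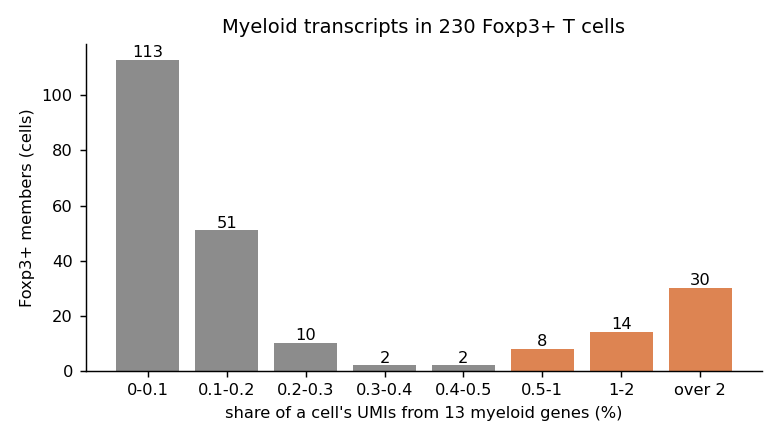
Number of Treg (vertical axis, cells) by the share of their UMIs that came from 13 myeloid genes (horizontal axis, %), over all 4 libraries. In 113 cells the share was under 0.1%, while the 52 mixed barcodes (orange) lay at 0.5% or more, 30 of them over 2%.

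Treg numbers came first, since the compound could change how many of these cells the sorted leukocytes held. Treg were 1.265% of kept cells in vehicle 1 and 1.282% in vehicle 2, and 1.698% in AT38 1 and 2.057% in AT38 2. Both AT38 libraries lay above both vehicle libraries. The means were 1.274% ± 0.0118 and 1.877% ± 0.254 (SD, n = 2 libraries each), with an exact two-sided permutation p of 0.333, the smallest that 2 against 2 libraries can give. In an edgeR quasi-likelihood fit over 7 exclusive cell classes the log2 fold change was 0.55 ± 0.13 (SE), which did not pass after Benjamini-Hochberg adjustment (adjusted p = 0.0768). Leaving out AT38 1 gave 0.69 (adjusted p = 0.0107), while leaving out AT38 2 gave 0.41 (adjusted p = 0.112), vehicle 1 0.54 (adjusted p = 0.218) and vehicle 2 0.56 (adjusted p = 0.327). Removing the likeliest doublets gave 0.57 (adjusted p = 0.0365), and leaving out mixed barcodes gave 0.48 (adjusted p = 0.152).

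The share depended on the population it was taken of. CD8 T cells were also more frequent with AT38 (log2 fold change 0.63, adjusted p = 0.0768) and B cells less (fell by 0.81, adjusted p = 0.0796), neither past the threshold. Of cells with a Cd3 UMI, Treg were 3.85, 3.99, 4.13 and 4.79% in vehicle 1, vehicle 2, AT38 1 and AT38 2, a log2 fold change of 0.18 (adjusted p = 0.588). Of Treg and Foxp3-negative CD4 T cells together they were 18.6, 18.9, 21.1 and 20.6%, a log2 fold change of 0.15 (adjusted p = 0.705). Against CD8 T cells the order was not kept: of Treg plus CD8 T cells, vehicle libraries held 13.3% ± 1.43 Treg and AT38 libraries 12.6% ± 0.589 (SD, n = 2, exact permutation p = 0.667).

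**Figure D2:**
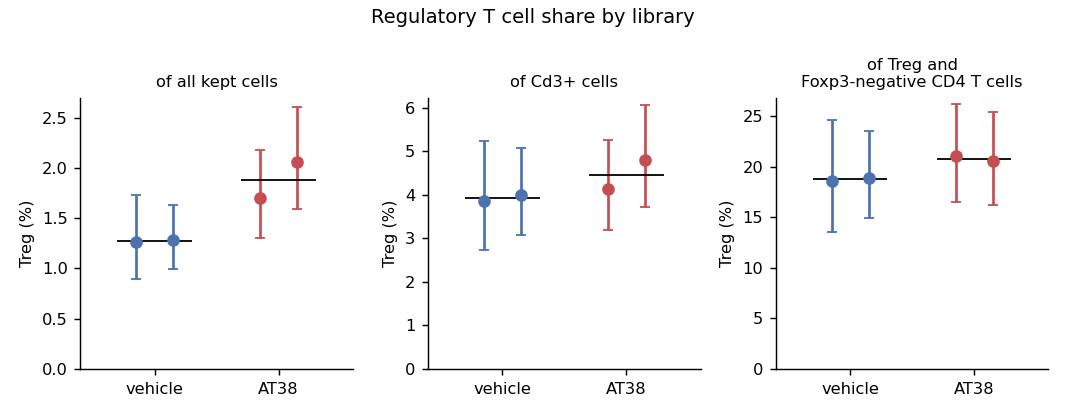
Treg as a percentage of all kept cells, of Cd3-positive cells and of Treg plus Foxp3-negative CD4 T cells (vertical axes), 1 point per library with its 95% exact binomial interval and the group mean as a line. The AT38 libraries lay at 1.698 and 2.057% of kept cells against 1.265 and 1.282% with vehicle, and the groups lay closer together among T cells.

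Treg were next compared with Foxp3-negative CD4 T cells of the same libraries, to describe what these cells share besides the genes of the rule. UMIs were summed per library and cell type and tested with edgeR's quasi-likelihood test with the library as a block. Genes of either gate were left out before the fit. Of 7769 genes tested, 238 were higher in Treg (3.06% of those tested) and 161 lower (2.07%). Without mixed barcodes 427 of 5478 were higher (7.79%) and 375 lower (6.85%), and 214 higher and 140 lower genes were called in both fits. Calls in all members numbered 202 without vehicle 2 and 218 without AT38 1. The median log2 fold change over all tested genes was -0.0073 and, without mixed barcodes, -0.025. Below, CPM are without mixed barcodes, in the order vehicle 1, vehicle 2, AT38 1, AT38 2. Log2 fold changes (± SE) are of Treg over Foxp3-negative CD4 T cells. The share of all tested genes whose sums separated these cell types is not given here. Lack of overlap between the cell types is therefore a description and not further support.

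Treg identity genes outside the rule were higher in Treg where they passed. Of 12 tested, 9 were higher in Treg and 0 lower (median log2 fold change 0.93), and 8 without mixed barcodes (median 1.17). Ikzf4, the Helios relative Eos, stood at 224, 232, 207 and 168 CPM in Treg against 36.3, 34.4, 23.7 and 30.0 in Foxp3-negative CD4 T cells. The ranges did not overlap, and the log2 fold change was 2.61 ± 0.17 in all members (adjusted p = 8.15e-08) and 2.72 ± 0.20 without mixed barcodes. Izumo1r stood at 333, 253, 306 and 465 CPM against 116, 57.8, 98.8 and 71.4, again without overlap (1.98 ± 0.16, adjusted p = 5.91e-07, and 2.03 ± 0.18). Lrrc32 encodes GARP, which holds latent TGF-beta on the Treg surface. It stood at 40.2, 103, 179 and 110 CPM against 3.46, 7.38, 0 and 7.05 (4.32 ± 0.53, adjusted p = 0.00404, and 4.43 ± 0.42). Its call in all members was lost without vehicle 2 (adjusted p = 0.0718). The costimulatory receptor gene Tnfrsf18 (GITR) had a log2 fold change of 1.25 ± 0.13 in all members and 1.32 ± 0.12 without mixed barcodes. Nrp1, often used as a marker of thymus-derived Treg, did not pass (0.10 ± 0.17, adjusted p = 0.859, and 0.32 ± 0.19, adjusted p = 0.325).

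Effector and tissue Treg genes were higher in Treg where they passed, with 1 exception without mixed barcodes. Of 18 tested, 7 were higher and 0 lower in all members (median 0.51), and 10 higher and 1 lower, Rbpj, without mixed barcodes (median 0.61). Klrg1 stood at 218, 339, 245 and 172 CPM in Treg against 5.19, 13.5, 4.17 and 13.2. All 4 Treg sums exceeded all 4 sums of the other cells, with a log2 fold change of 4.65 ± 0.23 in all members (adjusted p = 3.18e-09) and 4.60 ± 0.26 without mixed barcodes. Il1rl1 stood at 437, 463, 334 and 375 CPM against 25.9, 39.4, 12.5 and 42.3 (3.33 ± 0.17, adjusted p = 4.11e-09, and 3.70 ± 0.19). Tnfrsf9, the activation-induced receptor 4-1BB, stood at 948, 1218, 1220 and 931 CPM against 256, 209, 134 and 168 (2.17 ± 0.14 and 2.52 ± 0.15). Areg stood at 437, 424, 735 and 325 CPM against 53.6, 46.7, 55.7 and 81.1. Its ranges did not overlap, but it passed only without mixed barcodes (2.94 ± 0.23, adjusted p = 1.56e-06; in all members 2.92 ± 0.48, adjusted p = 0.0827). The transcription factor gene Gata3 stood at 333, 313, 334 and 270 CPM against 135, 168, 181 and 176 (0.90 ± 0.16, adjusted p = 0.00168, and 0.91 ± 0.15). Ccr8 (0.58 ± 0.29, adjusted p = 0.343), Icos (0.20 ± 0.11, adjusted p = 0.389) and Batf (-0.31 ± 0.21, adjusted p = 0.558) did not pass in all members or without mixed barcodes.

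Group 2 innate lymphoid cells also use Il1rl1 and Gata3, and both were higher in Treg. Of the 7 markers listed for those cells, the cytokine gene Il5 and the gene Hs3st1 were at 0 in Treg without mixed barcodes in all 4 libraries, Il13 and Il17rb were at 0 in 3 of 4 each, and Calca, a neuropeptide gene, was at 0 in AT38 1 alone. With Il1rl1 and Gata3 counted, the 7 markers summed to 672 to 823 CPM in these Treg and to 181 to 255 in the other cells. Seen cell by cell, a Klrg1 UMI was present in 24.7% of 174 thinned Treg without mixed barcodes, 1.42% of 705 Foxp3-negative CD4 T cells and 0.0786% of 1272 B cells. For Il1rl1 these shares were 32.2, 3.12 and 0.314%, and for Areg 28.2, 4.40 and 0.157%. Without thinning they were 40.4, 2.47 and 0.154% for Klrg1, 47.2, 5.22 and 0.461% for Il1rl1, and 40.4, 7.97 and 0.769% for Areg. The B cell share stands for background, and the Treg shares lay above it.

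Klrg1 and Il1rl1 were often found in the same Treg. Of 72 Treg with a Klrg1 UMI 50 had an Il1rl1 UMI (69.4%, 95% exact interval 57.5 to 79.8%), against 34 of 106 without (32.1%, 23.3 to 41.8%). Median depth was 4848 and 3984 UMIs in these groups. After thinning, the shares were 25 of 43 (58.1%) and 34 of 131 (26.0%). By library the unthinned shares were 64.3 and 61.1% in vehicle 1, 72.7 and 29.6% in vehicle 2, 78.9 and 19.2% in AT38 1, and 58.8 and 28.6% in AT38 2. The gap was thus small in vehicle 1 and wide in the other libraries. Tcf7, a gene of resting and stem-like T cells, was seen in 2 of 72 Treg with Klrg1 (2.78%) and 15 of 106 without (14.2%), but in 4.65 and 8.40% after thinning. The integrin gene Itgae was seen in 55.6 and 54.7%, and so did not separate these groups.

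**Figure D3:**
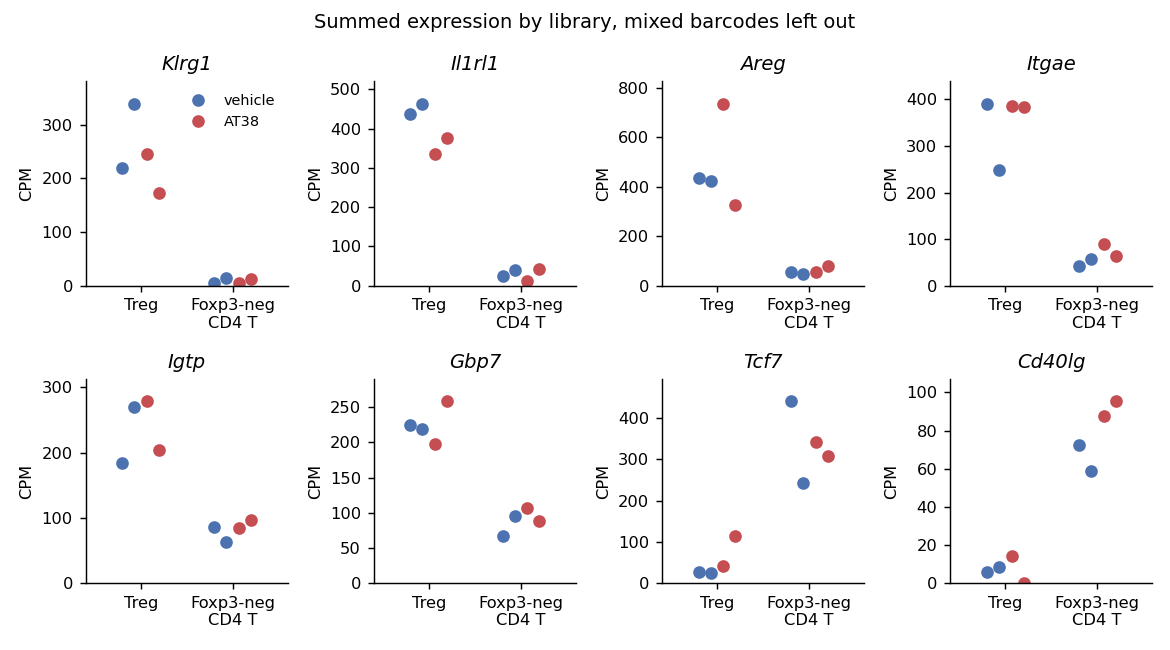
Summed expression (CPM, linear axes from 0) of 8 genes in Treg and Foxp3-negative CD4 T cells without mixed barcodes, 1 point per library (blue vehicle, red AT38). Klrg1, Il1rl1, Areg, Itgae, Igtp and Gbp7 were higher and Tcf7 and Cd40lg lower in all 4 Treg sums.

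Genes of suppressive molecules split. Of 14 tested, 7 were higher in Treg and 2 lower (median log2 fold change 0.60), and 6 and 2 of 13 without mixed barcodes (median 0.92). Itgb8, whose integrin releases active TGF-beta, stood at 63.2, 90.0, 42.4 and 180 CPM in Treg against 13.8, 33.2, 18.1 and 25.6 (2.16 ± 0.23, adjusted p = 1.97e-05, and 2.03 ± 0.28). Il10 stood at 46.0, 90.0, 47.1 and 106 CPM against 17.3, 17.2, 20.9 and 20.3 (1.59 ± 0.29, adjusted p = 0.00669, and 1.95 ± 0.31). The Il10 call in all members was lost without vehicle 2 (adjusted p = 0.098). Neither gene overlapped between the cell types. Gzmb, the protease granzyme B, stood at 270, 746, 471 and 481 CPM against 13.8, 186, 37.6 and 20.3. It passed in all members (3.02 ± 0.33, adjusted p = 0.00901) but not without AT38 1 (adjusted p = 0.0781) or without mixed barcodes (3.26 ± 0.58, adjusted p = 0.0553). The ectoenzyme gene Entpd1 (CD39) did not pass (0.55 ± 0.20, adjusted p = 0.157, and 0.74 ± 0.29, adjusted p = 0.0944). Lower in Treg were the inhibitory receptor gene Lag3 (-1.59 ± 0.32, adjusted p = 0.0426, and -1.64 ± 0.25) and the enkephalin precursor gene Penk (-1.25 ± 0.23, adjusted p = 0.0203, and -1.02 ± 0.16). The Lag3 call in all members was lost without vehicle 1 (adjusted p = 0.171) or vehicle 2 (adjusted p = 0.0715), and that of Penk without AT38 1 (adjusted p = 0.115). Penk was also not called in Treg with a Cd4 UMI and no Cd8a UMI (-0.59, adjusted p = 0.464). Nor was it called without cells holding any of 6 myeloid genes (-0.15, adjusted p = 0.889). Without mixed barcodes the Penk call was lost with the library terms dropped (adjusted p = 0.197). Cell by cell, without mixed barcodes, a Penk UMI was seen in 12.9% of Treg and 10.2% of Foxp3-negative CD4 T cells. After thinning the shares were 6.90 and 8.23%, so the share of cells with Penk differed little.

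Checkpoint and costimulatory receptors moved in both directions, with 4 of 13 higher (Tnfrsf9, Tnfrsf18, Cd27 and Cd5) and 5 lower (Cd28, Pdcd1, Lag3, Cd96 and Cd226) in either fit. The median was 0.19 in all members and -0.13 without mixed barcodes. In all members Cd96 was not called without vehicle 1 (adjusted p = 0.071), vehicle 2 (0.163) or AT38 2 (0.0697), nor Cd226 without AT38 1 (0.117). Pdcd1, which encodes PD-1, stood at 91.9, 94.3, 33.0 and 54.8 CPM in Treg against 235, 167, 124 and 114. All 4 Treg sums lay below the other cells (-0.89 ± 0.17, adjusted p = 0.00384, and -1.21 ± 0.20). Cd27, a costimulatory receptor of the TNF receptor family, stood at 138, 142, 203 and 176 CPM against 69.2, 57.8, 36.2 and 48.5 (1.48 ± 0.16, adjusted p = 2.23e-05, and 1.66 ± 0.21). Tigit was too low to be tested.

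Homing receptors also split, 4 of 17 higher and 3 lower (median 0.42), and 5 and 3 of 15 without mixed barcodes (median 0.46). Itgae (CD103), which binds E-cadherin on epithelium, stood at 391, 249, 386 and 383 CPM in Treg against 43.2, 57.8, 90.5 and 64.3 (1.67 ± 0.15, adjusted p = 3.71e-06, and 2.45 ± 0.17). Its partner chain Itgb7 stood at 460, 514, 584 and 469 CPM against 152, 128, 184 and 229 (1.41 ± 0.17, adjusted p = 0.000303, and 1.56 ± 0.14). Ccr2, a receptor for inflammatory chemokines, stood at 259, 519, 631 and 426 CPM against 88.2, 127, 127 and 108 (1.26 ± 0.17, adjusted p = 0.000689, and 2.01 ± 0.14). All 3 genes were higher in every Treg sum. The chemokine receptor gene Cxcr6 went the other way, at 126, 112, 75.4 and 110 CPM against 413, 572, 494 and 414 (-2.04 ± 0.14, adjusted p = 1.62e-07, and -2.16 ± 0.16). S1pr1, which guides exit from tissue into lymph, was lower too (-1.25 ± 0.15, adjusted p = 4.11e-05, and -1.22 ± 0.16).

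Genes of resting and recirculating T cells were lower where they passed: of 10 tested, 6 were lower and 0 higher (median -0.97), and 7 and 0 without mixed barcodes (median -1.28). Tcf7 stood at 28.7, 25.7, 42.4 and 113 CPM in Treg against 439, 244, 341 and 308 (-2.08 ± 0.20, adjusted p = 1.54e-05, and -2.57 ± 0.32). AT38 2 was the highest of the Treg sums and still lay below every sum of the other cells. Igfbp4, a gene of naive T cells, stood at 0, 8.58, 0 and 27.4 CPM against 144, 244, 117 and 219 (-3.20 ± 0.23, adjusted p = 1.62e-07, and -4.16 ± 0.35). Satb1, a chromatin organiser, was lower (-0.94 ± 0.15, adjusted p = 0.00152, and -1.33 ± 0.14). The comparison cells did not have to pass the receptor step of the Treg rule. With only those that did, calls in all members were lost for Satb1 (-0.447, adjusted p = 0.0972), Lef1 (-0.613, adjusted p = 0.198) and Bach2 (-0.507, adjusted p = 0.408). Tcf7 and Igfbp4 stayed called under every alternative to the fit in all members. Ccr7 (0.42 ± 0.17, adjusted p = 0.268, and adjusted p = 0.172) and Il7r (0.18 ± 0.23, adjusted p = 0.82, and adjusted p = 0.796) did not pass.

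Helper ligands and cytokines marked the other cells. Cd40lg, which lets helper T cells license B and dendritic cells, stood at 5.75, 8.58, 14.1 and 0 CPM in Treg against 72.6, 59.0, 87.7 and 95.2 (-3.57 ± 0.43, adjusted p = 0.000111, and -3.48 ± 0.43). Tnfsf8 (CD30 ligand) stood at 5.75, 8.58, 23.6 and 19.6 CPM against 315, 381, 398 and 463 (-3.75 ± 0.48, adjusted p = 0.0253, and -4.72 ± 0.24), and its call in all members was lost without vehicle 1 (adjusted p = 0.0765). Tnfsf11 (RANKL) stood at 57.5, 42.9, 18.9 and 39.1 CPM against 270, 237, 369 and 308 (-2.42 ± 0.25, adjusted p = 0.000332, and -2.91 ± 0.23). None of these ligands overlapped between the cell types. Ifng, the type 1 helper cytokine, stood at 40.2, 8.58, 42.4 and 7.82 CPM against 114, 229, 260 and 230. It passed only without mixed barcodes (-3.19 ± 0.35, adjusted p = 9.94e-06; in all members -2.65 ± 0.55, adjusted p = 0.111). Over the list of helper programmes, 1 of 9 was higher (Gata3) and 1 lower in all members, and 1 higher and 5 lower of 8 without mixed barcodes.

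**Figure D4:**
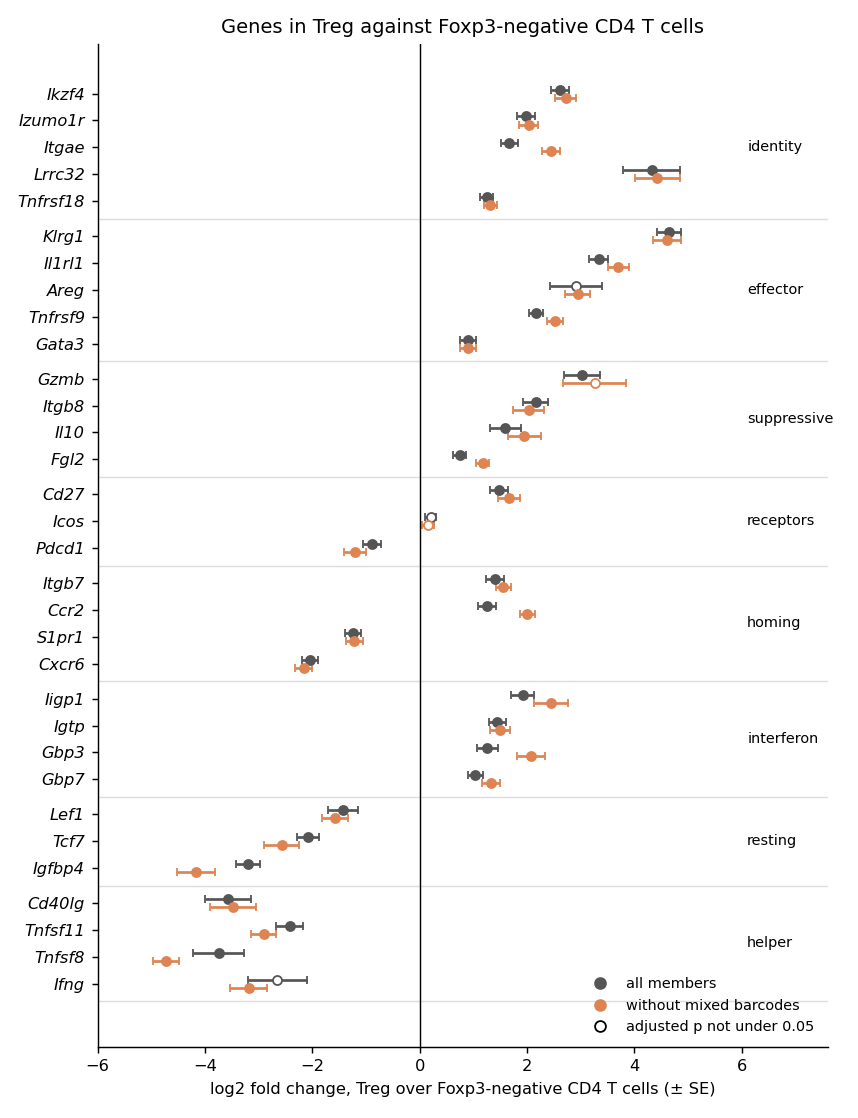
Log2 fold change of Treg over Foxp3-negative CD4 T cells (horizontal axis, ± SE) for genes in 8 groups, for all members (grey) and without mixed barcodes (orange), with open points where the adjusted p was not under 0.05. Klrg1 was highest at 4.65 and 4.60, and Tnfsf8 lowest at -3.75 and -4.72.

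Interferon-induced genes were higher in Treg where they passed. Of the interferon gamma response genes and GTPases, 18 were tested, and 7 of them were higher and 0 lower in all members (median 0.67), and 9 and 0 of 16 without mixed barcodes (median 0.62). Of 18 type I interferon response genes, 4 were higher and 0 lower (median 0.12), and 6 and 0 of 12 without mixed barcodes (median 0.50). Many of these genes carry, close to their start, short sites bound by transcription factors that act downstream of interferon receptors. The 120 bases before the start of 4 members higher in both fits are shown, since these members moved together and hold such letters. The sequences are from RefSeq on GRCm38.p6, plus strand, 5′ to 3′, and capitals mark a match on either strand to TTCNNNGAA (a gamma-activated site, GAS) or GAAANNGAAA (an interferon-stimulated response element, ISRE); overlapping matches run together.
Irf1 (chr11:53769894-53770013): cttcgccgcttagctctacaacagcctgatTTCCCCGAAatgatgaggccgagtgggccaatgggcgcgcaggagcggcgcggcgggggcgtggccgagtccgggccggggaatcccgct
Igtp (chr11:58199436-58199555): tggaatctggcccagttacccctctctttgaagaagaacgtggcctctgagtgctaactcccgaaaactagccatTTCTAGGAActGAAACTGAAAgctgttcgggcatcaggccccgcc
Gbp3 (chr3:142559924-142560043): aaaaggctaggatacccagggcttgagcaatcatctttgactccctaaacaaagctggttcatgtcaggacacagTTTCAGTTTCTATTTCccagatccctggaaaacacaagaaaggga
Gbp7 (chr3:142530216-142530335): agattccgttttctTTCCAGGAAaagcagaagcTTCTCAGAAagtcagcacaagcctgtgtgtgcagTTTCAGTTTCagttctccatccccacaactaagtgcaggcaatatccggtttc

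These windows held 1 GAS in Irf1, 1 GAS and 1 ISRE in Igtp, 2 overlapping ISRE in Gbp3, and 2 GAS and 1 ISRE in Gbp7. Of the 19 genes on the interferon gamma list, 14 were searched, with 16 promoter entries of 300 bases (250 before to 50 after the start); Iigp1 was not searched. Either motif was found in 11 of the 16 entries, and the second entries of Irf1 and Gbp3 held none. Among all 32851 promoters, 8.30% held the GAS letters, 3.44% the ISRE letters and 11.3% either. Of the genes higher in both fits 5 were searched, and 4 of these held a motif in an entry; Tap1 was the exception. Over all 14 searched genes 11 held one. Socs1, Gbp2, Gbp5, Irgm1, Irgm2, Tgtp2 and Psmb8 held a motif without being higher in both fits. The letters thus did not set the genes higher in Treg apart from the rest of the list. A match is a description of letters and not a measured site.

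Irf1, an interferon-induced transcription factor, stood at 362, 446, 358 and 504 CPM in Treg against 263, 202, 256 and 307 (0.68 ± 0.12, adjusted p = 0.00255, and 0.71 ± 0.13), and its call in all members was lost without vehicle 2 (adjusted p = 0.0597). The 4 Treg sums lay above the other cells. Igtp (Irgm3), an immunity-related GTPase that acts on parasite vacuoles, stood at 184, 270, 278 and 203 CPM against 86.5, 62.7, 84.9 and 97.0 (1.45 ± 0.16, adjusted p = 2.02e-05, and 1.50 ± 0.18). The guanylate-binding protein gene Gbp3 stood at 80.5, 103, 122 and 117 CPM against 15.6, 30.8, 16.7 and 36.1 (1.26 ± 0.19, adjusted p = 0.000467, and 2.07 ± 0.26). Gbp7 stood at 224, 219, 198 and 258 CPM against 67.5, 95.9, 107 and 88.1 (1.04 ± 0.15, adjusted p = 0.00026, and 1.33 ± 0.17). None of these GTPase genes overlapped between the cell types. Iigp1 had a log2 fold change of 1.92 ± 0.21 (adjusted p = 2.1e-05) and 2.45 ± 0.31.

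Markers of other cells were read beside these groups. Of 7 tested neutrophil, 9 macrophage and monocyte and 7 dendritic cell markers, edgeR called 0 in all members; 1 of each list had an unadjusted p under 0.05, and DESeq2 called 0. Without mixed barcodes, Cd14 (lower) and Cd74 (higher) were called, and Cd74 is a gene used to set the mixed barcodes aside. Both B cell genes tested, Ighm and Igkc, were higher in Treg, but Igkc was not called in all members without vehicle 2 (adjusted p = 0.104), AT38 1 (0.331) or AT38 2 (0.0505), nor by DESeq2 (0.215). Ighm stood at 356, 347, 358 and 450 CPM against 43.2, 68.9, 33.4 and 52.0 (2.21 ± 0.16, adjusted p = 2.13e-07, and 2.94 ± 0.17). The 9 listed B cell markers summed to 453 to 491 CPM in Treg without mixed barcodes and 66.2 to 96.6 in Foxp3-negative CD4 T cells, with Cd79a at 0 in both by rule. Their part in the other differences was not tested.

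Treg of AT38 and vehicle libraries were then compared gene by gene, the question being whether the compound changed what these cells express. In all members 2 of 6090 genes passed edgeR's quasi-likelihood test, both lower with AT38 (0.0328% of those tested), and 285 had an unadjusted p under 0.05. DESeq2 called 4. Without mixed barcodes 1 of 3831 passed, also lower (0.0261%), with 249 at an unadjusted p under 0.05, and DESeq2 called 0. No gene was called in both fits. Where nothing differs, a fraction of about 0.05 of tested genes is expected at an unadjusted p under 0.05. Such counts, here and for the gene lists below, are therefore not calls. With vehicle 1, vehicle 2, AT38 1 or AT38 2 left out, 23, 97, 30 and 31 genes were called in all members and 26, 5, 43 and 10 without mixed barcodes, so the counts rested on which libraries entered.

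The genes called in all members are ones that myeloid cells express. Thbs1, thrombospondin 1, stood at 361.5 and 342.5 CPM in vehicle 1 and 2 and at 119 and 103 CPM in AT38 1 and 2. The groups did not overlap (log2 fold change -1.65 ± 0.22, adjusted p = 0.0015). Of its 366 UMIs 90.7% lay in mixed barcodes, and without those it stood at 64.1, 30.6, 4.74 and 58.8 CPM, where the groups overlapped (adjusted p = 0.955). S100a9, a neutrophil alarmin subunit, stood at 1506 and 956 CPM with vehicle and 471 and 545 with AT38 (-1.27 ± 0.20, adjusted p = 0.0428). Of its 1333 UMIs 94.0% lay in mixed barcodes, which S100a9 itself helped to define. Without them it stood at 99.1, 30.6, 23.7 and 200 CPM (0.93 ± 1.43, adjusted p = 0.959), so the direction was reversed.

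The gene called without mixed barcodes was Ccr9, a gut-homing chemokine receptor. It stood at 122 and 87.5 CPM in vehicle 1 and 2 and at 18.9 and 15.7 CPM in AT38 1 and 2, without overlap (-2.55 ± 0.49, adjusted p = 0.0463). It rested on 49 UMIs in 15 of 178 cells, 14 of them in a single vehicle 1 cell. The call was lost without vehicle 1 (adjusted p = 0.287), without AT38 2 (adjusted p = 0.0543) and with DESeq2's size factors (adjusted p = 0.0521). In all members it stood at 83.4 and 53.0 CPM against 23.9 and 22.0 (-1.49 ± 0.41, adjusted p = 0.33).

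Several T cell genes separated the groups without passing. Il7r, the IL-7 receptor chain, stood at 525 and 485 CPM with vehicle and 223 and 255 with AT38 without mixed barcodes (-1.07 ± 0.22, adjusted p = 0.0642), and at 429, 312, 165 and 198 in all members (-1.01 ± 0.22, adjusted p = 0.236). Its 313 UMIs without mixed barcodes came from 108 cells. Penk stood at 297 and 245 CPM against 128 and 118 without mixed barcodes (-1.13 ± 0.28, adjusted p = 0.146), from 164 UMIs in 23 cells. In the same cells the interferon-induced gene Ifi27l2a stood at 1212 and 1264 CPM with vehicle and 1730 and 2738 with AT38 (0.85 ± 0.18, adjusted p = 0.0766), from 1560 UMIs in 157 cells. These groups did not overlap in either set of cells, and the tests did not call them. With so few libraries, the smallest exact permutation p that full separation of the groups can give is 0.333. The share of all tested genes that separated the groups is not given here. Lack of overlap between AT38 and vehicle, here and for Thbs1 and Ccr9, is therefore a description and not support for an effect.

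**Figure D5:**
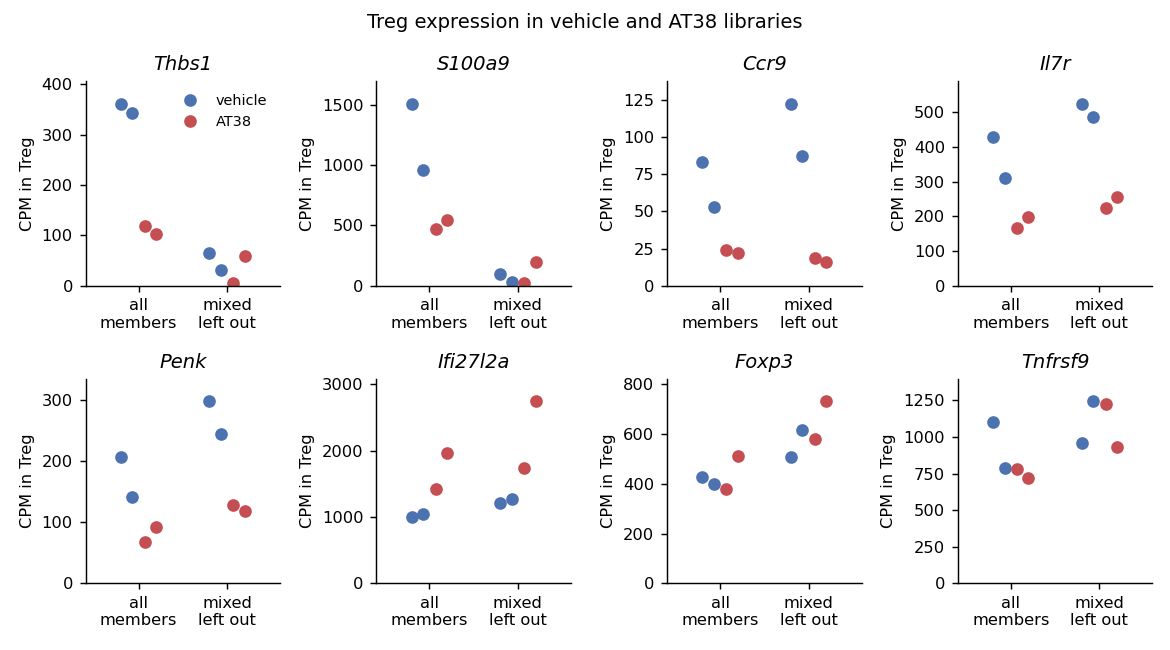
Expression in Treg (CPM, linear axes from 0) of 8 genes in the vehicle (blue) and AT38 (red) libraries, 1 point per library, with all members on the left and mixed barcodes left out on the right of each panel. Thbs1 was at most 64.1 CPM and S100a9 at most 200.1 CPM in every library once mixed barcodes were left out, while Ccr9, Il7r, Penk and Ifi27l2a kept the groups apart in both.

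Genes of Treg function did not pass. Foxp3, which chose the members and is only described, stood at 507 and 617 CPM with vehicle and 578 and 730 with AT38 without mixed barcodes. Klrg1 stood at 222 and 345.5 CPM against 246 and 173 (-0.47 ± 0.26, adjusted p = 0.829), and Il1rl1 at 443 and 472 CPM against 336 and 377 (-0.36 ± 0.21, adjusted p = 0.834). Tnfrsf9 stood at 962 and 1242 CPM against 1227 and 934 (-0.04 ± 0.18, adjusted p = 0.99). Il1rl1 alone of these had both AT38 libraries below both vehicle libraries, which was not so in all members (338 and 273 against 191 and 279 CPM). Areg stood at 443 and 433 CPM against 739 and 326, so the AT38 libraries lay on either side of vehicle. In all members the adjusted p of Klrg1, Il1rl1, Tnfrsf9 and Areg was 0.996. A p above the threshold does not show that the groups were alike.

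Over the 34 gene lists read, edgeR called S100a9 of the neutrophil list in all members, Ccr9 of the homing list without mixed barcodes, and no other list gene. The oxidative stress and NRF2 list, read because the series title names nitrosative stress, had 0 of 17 called (2 at an unadjusted p under 0.05, DESeq2 0, median log2 fold change -0.056), and 0 of 15 without mixed barcodes (1, DESeq2 0, median 0.025). The NF-kB list had 0 of 14 called (3 at an unadjusted p under 0.05, DESeq2 0, median 0.18), and 0 of 13 without mixed barcodes (3, DESeq2 0, median 0.40). The type I interferon list had 0 of 15 called (4 at an unadjusted p under 0.05, DESeq2 0, median 0.53), and 0 of 9 without mixed barcodes (1, DESeq2 0, median 0.14). The median over all genes tested was -3.3e-05 and -0.0046.

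Whether the AT38 difference itself differed between Treg and Foxp3-negative CD4 T cells was tested as an interaction. In all members 6 of 8557 genes passed, all with a higher AT38 effect in Treg (0.0701%), and without mixed barcodes 1 of 6352, with a lower one (0.0157%). None was called in both fits. With vehicle 1, vehicle 2, AT38 1 or AT38 2 left out, the counts were 2, 0, 142 and 36 in all members and 21, 3, 41 and 15 without mixed barcodes. The strongest, Il12b, a dendritic cell cytokine subunit, was at 0 in both vehicle Treg sums and at 330 and 105 CPM in AT38 1 and AT38 2. Its 215 UMIs came from 4 members, 158 of them from 1 AT38 1 barcode, and 99.5% lay in mixed barcodes. Its call was lost without vehicle 1 (adjusted p = 0.0719) or vehicle 2 (adjusted p = 0.102). For Il7r the interaction was -1.05 ± 0.24 (adjusted p = 0.147) and -0.98 ± 0.27 without mixed barcodes (adjusted p = 0.636), so a difference between the cell types was not shown.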

How the data were processed

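CD45-enriched tumour cells from 4 pooled libraries were profiled with 10x 3′ v3.1 chemistry. The authors deposited raw UMI counts per gene and barcode, made with Cell Ranger 3.1.0 on mm10, per the submitters' processing notes. Kept barcodes had 200 genes and 500 UMIs or more and a mitochondrial share of 10% or less. The members and all gene lists were chosen with earlier results of these data known. UMI counts were summed per library and cell type and tested with edgeR 4.0.16 in R 4.3.3 (two-sided robust quasi-likelihood fits on TMM-scaled counts of genes kept by filterByExpr, Benjamini-Hochberg adjustment over all tested genes, threshold 0.05). CPM of single genes use TMM-scaled library sizes, while summed marker CPM use the unscaled UMI totals of the cells. SEs were derived from the fold change and its p. DESeq2 1.42.0 with adjusted p, other size factors, no filter, left-out libraries, a replicate block and other cell limits were alternatives, as was removing the highest scrublet scores (scanpy 1.11.5) at 0.8% per 1000 barcodes; scrublet was not part of the chief results. Shares were compared by exact permutation in scipy 1.17.1, and in thinned cells (1500 UMIs) shallower cells were left out. Scripts were tested on simulated counts.

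Named genes were the largest differences past the threshold and up to 4 of smallest p from each of 34 lists. Also named were 24 genes whatever their value. The largest differences needed a mean of at least 10 CPM (AT38) or 30 CPM (cell types). They also needed groups without overlap (AT38) or the same direction within every library (cell types). For genes picked this way, separation is therefore partly fixed by the choice. The text describes a subset of the named genes. Some planned genes and a planned comparison are not reported here. Gene names and 10x 3′ counts come from the deposited files, and levels are not compared between genes.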

Additional observations from a re-analysis of the deposited data

Results flagged for a closer look

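For 7 genes the AT38 difference in Treg and in Foxp3-negative CD4 T cells passed a test of the difference itself (edgeR interaction, values as log2 differences of the AT38 effect in Treg over that in the other cells). In all members these were Il12b (15.26), Serpinb6b (2.427, a serine protease inhibitor), Rps27l (1.665), AA467197 (1.528), Gm42031 (1.55) and Basp1 (1.336). The Il12b value is fitted against sums of 0 and depends on the prior count. Serpinb6b stood at 78.4, 44.3, 322 and 120 CPM in Treg of vehicle 1, vehicle 2, AT38 1 and AT38 2, against 208, 129, 158 and 66.1 in the other cells. Rps27l, a p53 target, stood at 220, 264, 613 and 414 CPM against 355, 340, 242 and 215. Without mixed barcodes the interaction of Serpinb6b was 0.71 (adjusted p = 0.981) and of Rps27l 0.07 (adjusted p = 0.997), and 92.7% of Basp1 UMIs in Treg lay in mixed barcodes. Without those barcodes Tgfbi, a matrix protein gene of phagocytes, had a fitted value of -8.999 (adjusted p = 0.0117). It stood at 28.7, 248, 0 and 0 CPM in Treg against 17.3, 49.1, 64.1 and 3.54, and 58 of its 63 UMIs in Treg came from 1 vehicle 2 cell.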

How the results depend on the processing

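Calls in all members, in the order AT38 in Treg, Treg against Foxp3-negative CD4 T cells and interaction, numbered 2, 399 and 6. DESeq2 gave 4, 207 and 1, and no filter on low counts 46, 677 and 71. Leaving out 1 library gave 23 to 97, 202 to 370 and 0 to 142. Leaving out mixed barcodes, an alternative chosen after seeing the data, gave 1, 802 and 1. In AT38 calls, scrublet removal gave 0, a 20% mitochondrial limit 1, at least 2 Foxp3 UMIs 1 and no cycling limit 1. In the interaction these gave 14, 4, 0 and 0. Dropping cells with any of 6 myeloid genes gave 684 for the cell types and 1 for the interaction. Without mixed barcodes (1, 802 and 1), DESeq2 gave 0, 409 and 0, DESeq2's size factors gave 0 for AT38, and leaving out 1 library gave 5 to 43, 537 to 720 and 3 to 41.

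The replicate number as a block gave 12 AT38 calls in all members and 7 without mixed barcodes, and, in place of library terms, 2 and 0 interaction calls. Dropping the library block gave 359 and 829 cell type calls. The labels do not say whether the numbers mark a shared batch. Over all tested genes, same-numbered libraries deviated with a correlation of 0.0092 in all members and -0.036 without mixed barcodes. Whether a batch acted on some of the genes was not tested. For Treg number the block gave 0.57 (adjusted p = 0.0562), scrublet removal 0.568, and leaving out 1 library 0.412 to 0.688.

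Directions reversed for S100a9 (0.258 with scrublet removal, 0.930 without mixed barcodes), AA467197 (-0.976 without cells holding 6 myeloid genes, -0.486 without mixed barcodes), Serpinb6b (-1.51 without cells holding the 6 genes) and Tgfbi (-9.00 without mixed barcodes). The cause was not tested. Of 2023 refits of 122 gene results, 1778 stayed on the same side of the threshold, 179 no longer passed and 60 newly passed; genes that did not pass could change sign. Among calls in all members, Gata3 and Pdcd1 were lost with cells thinned to 1500 UMIs (adjusted p = 0.126 each). The Ccr2 call was lost in Treg with a Cd4 UMI and no Cd8a UMI (0.13). Those of S1pr1 (0.162) and Il10 (0.0852) were lost with the library terms dropped. Sums of 32 to 66 cells per library limit the precision of genes with few UMIs.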

Other observations

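Other gene groups also set Treg apart from Foxp3-negative CD4 T cells (edgeR quasi-likelihood, CPM without mixed barcodes, log2 fold changes in all members and then without mixed barcodes). NF-kB subunits and targets were higher where they passed in all members, 3 of 14 (Traf1, Rel and Nfkbie) with a median of 0.33, and without mixed barcodes 7 were higher and 1 lower (Bcl2a1d). Traf1, an adaptor of TNF receptor family signalling, stood at 575, 476, 481 and 493 CPM in Treg against 258, 279, 282 and 285 (0.68 ± 0.11, adjusted p = 0.00136, and 0.86 ± 0.12). Of 10 heat shock genes 2 were lower and 0 higher, and 4 and 0 without mixed barcodes. Hspa1a stood at 126, 47.2, 9.42 and 58.7 CPM against 410, 144, 242 and 168 (-1.37 ± 0.22, adjusted p = 0.00669 in all members and 0.000166 without mixed barcodes, the latter 0.0989 with the library terms dropped). Hspa1a and Hspa1b are near-identical, so reads could be split between them.

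The genes of the giant muscle proteins nebulin and titin were both higher in Treg. Neb stood at 132, 94.3, 151 and 156 CPM in Treg against 17.3, 28.3, 13.9 and 22.9 (2.70 ± 0.21, adjusted p = 3.77e-07, and 2.66 ± 0.26). Ttn stood at 161, 42.9, 75.4 and 113 CPM against 48.4, 13.5, 16.7 and 31.7 (2.12 ± 0.23, adjusted p = 2.1e-05, and 1.83 ± 0.25). Both were higher in Treg within every library, a condition for genes named by rank, although Ttn ranges overlapped across libraries. Ccl1, a ligand of CCR8, stood at 11.5, 4.29, 0 and 0 CPM in Treg, from 3 UMIs, against 159, 663, 135 and 336 (adjusted p = 1.86e-13). In all members, where 96.2% of its UMIs in Treg lay in mixed barcodes, it did not pass (adjusted p = 0.406).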
